A study of Mus musculus with 18 samples.

Results

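The 10 genes described here encode 4 ligands of the vascular endothelial growth factor family (Vegfa, Vegfb, Vegfc and Pgf) and 6 receptors and coreceptors of vessels (Flt1, Kdr, Flt4, Nrp1, Nrp2 and Tek). They were chosen by symbol among the 23951 genes of a deposited expression table, and all 10 have a row in it. The table holds 18 RNA-seq libraries of keratinocytes sorted from mouse ear skin at day 7 of a psoriasis-like disease. The comparison asked how the levels of ligand and receptor transcripts stood in hair follicle stem cells (HF-SC) and basal keratinocytes (b-KC), in mutant and non-mutant cells of diseased skin and in controls.

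As background, VEGF-A is the main vessel growth signal of skin and is made largely by keratinocytes. It acts through Kdr, the receptor tyrosine kinase that drives endothelial growth, and binds Flt1 more tightly, which also takes up VEGF-B and placental growth factor (Pgf). VEGF-C acts on Flt4 of lymphatic endothelium, the neuropilins Nrp1 and Nrp2 help VEGF binding and also bind semaphorins, and Tek (Tie2) is the angiopoietin receptor of endothelial cells. Widened dermal vessels and raised epidermal VEGF-A are known features of psoriasis.

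Each of 6 groups had 3 libraries, 1 per mouse. All mice were 8 weeks old, carried K5-Cre-ERT (Cre under the keratin 5 promoter) and the mT/mG reporter, which turns from Tomato to GFP in cells where Cre has acted, and had received 4 daily injections of 2 mg tamoxifen. The DKO* mice (814, 815 and 817) were floxed (f/f) on both copies of JunB and of c-Jun, and their GFP+ (mutant, GFP) and Tomato+ (non-mutant, Tom) cells were sorted apart. The control mice (Co; 810, 825 and 828) carried wild-type JunB and c-Jun or 1 floxed copy (+/f). HF-SCs were sorted as CD45- CD49f high CD34+ and b-KCs as CD45- CD49f high CD34- cells. The labels give CD45, CD49f and CD34 as the stains for these libraries. The methods also list CD31, an endothelial marker, among antibodies used according to the experiment, without saying whether it was part of this sort, and no sort of the Co cells by reporter colour is named. As background, endothelium can carry CD34 and CD49f, and the K5 promoter that drives Cre here is not an endothelial one. All 4 DKO* populations came from the same 3 mice, and both Co populations from the other 3.

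The values are FPKM, fragments per unit of transcript length and of mapped reads, so levels are per length and can be set beside each other between genes. Steps in the low FPKM values of single-transcript genes implied 16501300 to 26296600 reads per library. At that depth 3 reads were worth 0.0323 to 0.0515 FPKM of Vegfa, 0.0193 to 0.0307 FPKM of Kdr and 0.0607 to 0.0967 FPKM of Vegfc, a limit that covers counting error only. Keratinocyte markers (7 genes) summed to at least 5797 FPKM in every library, and 7 of 8 bulge markers were higher in HF-SC Co than in b-KC Co (18.7% of all genes), while 5 of 8 were lower in each DKO* fraction of HF-SCs than in HF-SC Co (13.9% of all genes in Tom, 12.3% in GFP). Some keratin rows are listed at 0 in single libraries, which can be a failed estimate: Krt15, a bulge keratin, in HF-SC Co of mouse 828 (11261 and 11764 FPKM in the other two) and Krt14, the basal keratin, in 1 b-KC GFP and 2 b-KC Tom libraries. Jun, 1 of the 2 deleted genes, was at 835 to 1086 FPKM in the Co HF-SCs, 30.4 to 88.4 in the GFP HF-SCs and 308 to 614 in the Tom HF-SCs. Junb was at 436 to 463 FPKM in the Co HF-SCs, 38.6 to 77.5 in the GFP HF-SCs and 251 to 402 in the Tom HF-SCs. Both genes thus lay below HF-SC Co in the non-mutant Tom fraction as well, without overlap. In b-KCs Junb was at 737 to 772 FPKM in Co, 37.2 to 72.2 in GFP and 208 to 397 in Tom.

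The promoters are shown because the deleted genes encode 2 subunits of AP-1, a factor that binds DNA at short motifs near the genes it controls. The windows are from RefSeq on GRCm38.p6, from 250 bases before to 50 bases after each annotated start, and the 10 genes had 12 of them, with 2 starts each for Vegfa and Pgf. Both strands were searched for the AP-1 motif TGANTCA, the core of the hypoxia response element ACGTG and the GC box GGGCGG. AP-1 letters were in 0 of the 12 windows and in 7.81% of all 32851 windows of this length. ACGTG was in 1 of the 12, the downstream start of Vegfa, against 19.6% of all windows, and a GC box was in 10 of the 12, against 35.7%. A match describes letters only, and the lack of one says nothing of the factor outside the window. The 250 bases before the start are given 5′ to 3′ on the gene's strand for the ligands Vegfa (both starts) and Pgf (the upstream start) and for the receptors Kdr and Tek, with motif matches in capitals.
Vegfa, upstream start (chr17:46032378-46032627, minus strand): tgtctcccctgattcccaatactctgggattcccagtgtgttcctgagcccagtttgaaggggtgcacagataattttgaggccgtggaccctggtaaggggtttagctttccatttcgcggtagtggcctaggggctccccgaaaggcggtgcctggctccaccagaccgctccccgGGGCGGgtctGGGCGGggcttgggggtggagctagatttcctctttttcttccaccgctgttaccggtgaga
Vegfa, downstream start (chr17:46025164-46025413, minus strand): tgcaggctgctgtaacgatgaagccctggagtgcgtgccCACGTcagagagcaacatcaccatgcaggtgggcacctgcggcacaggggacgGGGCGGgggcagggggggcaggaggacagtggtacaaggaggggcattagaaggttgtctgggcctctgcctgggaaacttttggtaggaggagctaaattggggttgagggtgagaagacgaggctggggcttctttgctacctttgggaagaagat
Pgf, upstream start (chr12:85177314-85177563, minus strand): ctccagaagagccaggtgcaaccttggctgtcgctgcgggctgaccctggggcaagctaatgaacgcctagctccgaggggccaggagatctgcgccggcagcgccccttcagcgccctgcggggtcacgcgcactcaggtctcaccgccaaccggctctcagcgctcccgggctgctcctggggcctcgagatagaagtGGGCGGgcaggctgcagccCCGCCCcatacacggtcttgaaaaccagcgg
Kdr (chr5:75978456-75978705, minus strand): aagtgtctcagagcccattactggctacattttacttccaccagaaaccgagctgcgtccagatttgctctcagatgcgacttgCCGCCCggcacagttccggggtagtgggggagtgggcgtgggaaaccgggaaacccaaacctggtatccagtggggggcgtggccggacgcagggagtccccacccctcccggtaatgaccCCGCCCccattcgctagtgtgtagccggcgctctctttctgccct
Tek (chr4:94739039-94739288, plus strand): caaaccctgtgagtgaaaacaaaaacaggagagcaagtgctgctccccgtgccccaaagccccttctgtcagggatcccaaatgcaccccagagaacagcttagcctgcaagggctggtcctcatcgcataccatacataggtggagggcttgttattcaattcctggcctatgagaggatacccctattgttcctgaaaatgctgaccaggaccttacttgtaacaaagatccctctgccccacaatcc
The Vegfa line of the upstream start has 2 GC boxes, at 72 and 62 bases before the start, and that of the downstream start has 1 together with the ACGTG match, read there as its reverse complement. Kdr has 2 GC boxes and Tek none, and the share of G and C in these upstream bases ran from 51.2% in Tek to 76.4% in Vegfb.

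In outline, Vegfa was higher in all 4 DKO* populations than in the matching controls, and Pgf in both HF-SC fractions. The 5 receptors tested, and Vegfc, were above HF-SC Co in the Tom fraction. Kdr, Nrp1 and Tek were lower in HF-SC GFP, and no receptor passed the test in b-KCs. A difference passed where limma gave a Benjamini-Hochberg adjusted p-value under 0.01 on log2(FPKM + 1) over the 12751 genes that reached 1 FPKM in 3 or more libraries. Flt4 missed this filter and was not tested. Fold changes on this scale understate changes of low genes. In HF-SC Tom against HF-SC Co, 8 of the 9 members tested were higher and 0 lower (by limma, 1 was lower at an unadjusted p under 0.05), where 15.7% of all genes tested were higher and 13.9% lower. In HF-SC GFP against HF-SC Co, 2 were higher and 3 lower, where 13.0% of all genes were higher and 12.3% lower. In b-KC Tom against b-KC Co, 1 was higher (15.4% of all genes) and 0 were lower (15.3%), with 1 lower at an unadjusted p under 0.05 by limma. In b-KC GFP against b-KC Co, 1 was higher (12.5%) and 0 lower (12.0%), with 0 lower at an unadjusted p under 0.05 by limma. Without the HF-SC Tom libraries, 3 of the 9 (Vegfc, Flt1 and Kdr) would have missed the filter, so these counts describe the 9 and are no rate for the family. Flt1, Kdr, Flt4, Tek and Vegfc are also among genes that the study drew in a map of those raised in these HF-SC Tom libraries, and their direction there is not independent evidence.

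**Figure D1:**
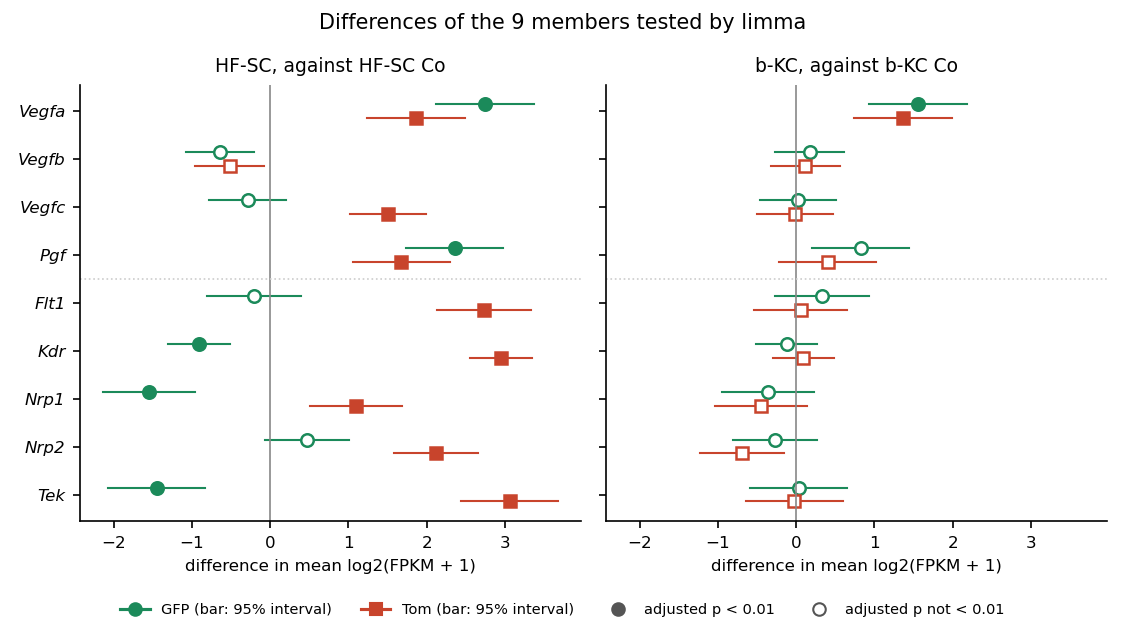
Differences of the 9 members tested, in log2(FPKM + 1), from Co in HF-SCs (left) and b-KCs (right), with GFP as green circles, Tom as red squares, bars as 95% intervals and filled symbols for adjusted p under 0.01. Vegfa lies right of 0 in all 4 comparisons, whereas the receptors lie far right only for HF-SC Tom, with Tek at 3.06.

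Vegfa (chromosome 17, 46153942 to 46169326, minus strand, NCBIM37; a protein-coding gene) is the ligand of Flt1 and Kdr. It had 2.54, 2.41 and 1.73 FPKM in the Co HF-SCs, 24.9, 23.9 and 14.2 in the GFP HF-SCs and 9.47, 7.03 and 17.8 in the Tom HF-SCs, each triplet in the order of the mice given above. The b-KC values were 5.07, 4.39 and 3.71 FPKM for Co mice, 20.1, 15.8 and 10.0 for the GFP fraction and 15.0, 13.0 and 10.8 for the Tom fraction. Every DKO* library was above every Co library, and the 4 DKO* populations overlapped with each other. Against HF-SC Co the mean was 9.45-fold higher among GFP and 5.14-fold higher among Tom HF-SCs, and 3.49-fold and 2.94-fold higher in the GFP and Tom b-KCs than in their controls. By limma the log2 differences were 2.74 ± 0.29 (SE; adjusted p = 3.83e-06) for GFP and 1.86 ± 0.29 (adjusted p = 0.000118) for Tom in HF-SCs, and 1.55 ± 0.29 (adjusted p = 0.000896) and 1.36 ± 0.29 (adjusted p = 0.00166) for GFP and Tom in b-KCs. The b-KC differences stayed at 1.34 to 1.81 for GFP and 1.26 to 1.53 for Tom over 12 alternatives. Without mouse 814 or 815 neither passed the threshold, with adjusted p-values up to 0.0126 for GFP and 0.0128 for Tom (limma), and that of Tom also missed it without mouse 828.

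Mouse 817 stood out for Vegfa. Its HF-SC GFP library was the lowest of the 3 and its HF-SC Tom library the highest, at 14.2 and 17.8 FPKM, so Tom was above GFP in 1 of 3 mice. In mice 814 and 815 the HF-SC GFP libraries held 24.9 and 23.9 FPKM and the HF-SC Tom libraries 9.47 and 7.03. Between the HF-SC fractions, with all mice, the log2 difference was -0.88 (limma, adjusted p = 0.0826), with a 95% interval of -1.51 to -0.25. Mouse 817, which went the other way, made this difference smaller, so the missed threshold depends in part on that mouse. Between the b-KC fractions the log2 difference was -0.19 (limma, adjusted p = 0.954), with an interval of -0.82 to 0.43. Among controls, Vegfa was at 1.73 to 2.54 FPKM in HF-SC Co and 3.71 to 5.07 in b-KC Co, groups that did not overlap, with a log2 difference of -0.74 (limma, adjusted p = 0.0449) that did not pass. It passed in 2 of 12 alternatives, only the groups compared and the removal of mouse 817.

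Pgf (chromosome 12, 86507589 to 86518246, minus strand), placental growth factor, binds Flt1. It was at or near the limit of detection in controls, where 3 reads were worth 0.0781 to 0.102 FPKM. It was listed at 0, 0.234 and 0.0648 FPKM in HF-SC Co and at 0.0808, 0.0829 and 0.160 in b-KC Co. In the DKO* HF-SCs it reached 4.92, 2.61 and 7.32 FPKM among GFP cells and 2.55, 1.50 and 3.83 among Tom cells. The libraries of both HF-SC fractions lay above all controls and overlapped with each other, and GFP was above Tom in each of the 3 mice. The log2 difference from HF-SC Co was 2.36 ± 0.29 (SE; limma, adjusted p = 1.54e-05) in GFP and 1.67 ± 0.29 (limma, adjusted p = 0.000276) in Tom. The b-KC fractions held 1.86, 0.872 and 0.410 FPKM (GFP) and 0.566, 0.320 and 0.524 FPKM (Tom). Both b-KC fractions lay above b-KC Co in every library, but the log2 differences of 0.82 (limma, adjusted p = 0.0335) and 0.41 (limma, adjusted p = 0.269) did not pass. Over 12 alternatives the first ran from 0.55 to 2.27 and passed with a pseudocount of 0.1 and without mouse 817 (limma, adjusted p down to 0.00121), and the second ran from 0.36 to 1.45 and passed with only the groups compared (limma, adjusted p = 0.00699).

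Vegfb (chromosome 19, 7056963 to 7062141, minus strand), another ligand of Flt1, lay between 2.95 and 8.91 FPKM in all 18 libraries. It had 8.13, 5.10 and 6.77 FPKM in the Co HF-SCs, 4.18, 4.55 and 2.95 in the GFP HF-SCs and 4.78, 4.22 and 3.91 in the Tom HF-SCs. Both DKO* fractions lay below the lowest HF-SC Co library, and neither difference passed, at -0.64 (limma, adjusted p = 0.0221) for GFP and -0.52 (limma, adjusted p = 0.054) for Tom. All 9 b-KC libraries lay between 4.98 and 8.91 FPKM, and the 3 b-KC groups overlapped.

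Vegfc (chromosome 8, 55162886 to 55271808, plus strand) encodes the ligand of Flt4 and of lymphatic vessel growth. It had 0.311, 0.626 and 0.262 FPKM in the Co HF-SCs, 0.167, 0.237 and 0.0224 in the GFP HF-SCs and 4.44, 3.94 and 1.28 in the Tom HF-SCs. The Tom libraries lay above all others, with the lowest value in mouse 817, and the log2 difference from Co was 1.50 ± 0.23 (SE; limma, adjusted p = 8.8e-05). It stayed at 1.27 to 2.62 over 12 alternatives and missed the threshold with only the groups compared (limma, adjusted p = 0.0142). GFP lay below Co in every library without passing, at -0.29 (limma, adjusted p = 0.342). In b-KCs it was listed at 0 in 6 of 9 libraries and reached at most 0.0538 FPKM, under the worth of 3 reads, so no fold is given there.

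**Figure D2:**
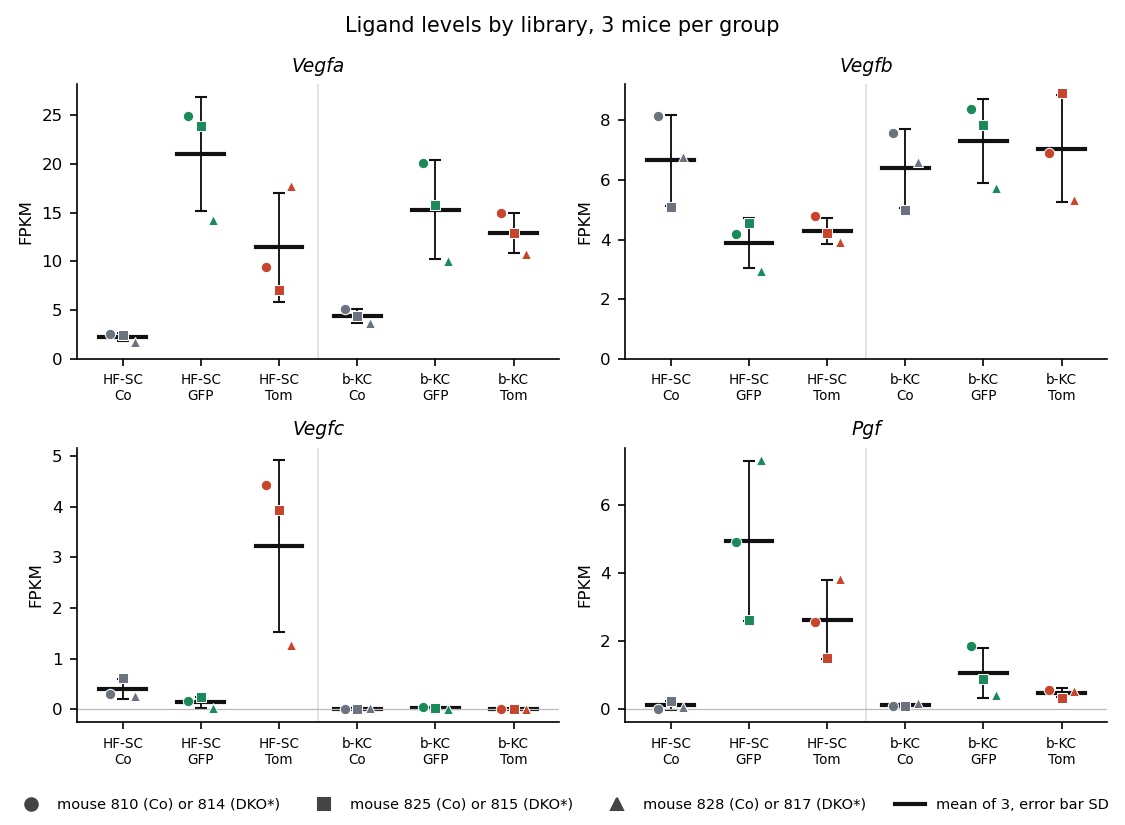
FPKM of the 4 ligands in each library of the 6 groups, with symbols for mice, the mean as a line and error bars of 1 SD (n = 3). Vegfa lies higher in all 4 DKO* groups than in controls, Pgf passed the test in the HF-SC fractions and not in those of b-KCs, Vegfb spans 2.95 to 8.91 FPKM over all libraries, and Vegfc stands up only in HF-SC Tom, at 1.28 to 4.44 FPKM.

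Flt1 (chromosome 5, 148373180 to 148537587, minus strand) was among the receptors of endothelial cells that separated HF-SC Tom from every other group. It had 0.909, 1.45 and 0.823 FPKM in the Co HF-SCs, 0.678, 1.51 and 0.321 in the GFP HF-SCs and 17.7, 16.6 and 6.66 in the Tom HF-SCs. Tom stood above the rest without overlap, and GFP and Co overlapped. The Tom mean was 12.9-fold that of Co (log2 difference 2.73 ± 0.28, SE; limma, adjusted p = 2.08e-06). In bulk libraries such as these, fewer or more cells of a type and less or more RNA per cell cannot be told apart.

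Kdr (chromosome 5, 76328852 to 76374483, minus strand), the main signalling receptor of VEGF-A, followed the same order with a fall in GFP. It had 0.877, 1.53 and 1.26 FPKM in the Co HF-SCs, 0.115, 0.361 and 0.0772 in the GFP HF-SCs and 15.5, 22.6 and 11.8 in the Tom HF-SCs. The 3 groups did not overlap. Tom was 13.6-fold above Co (log2 difference 2.95 ± 0.19, SE; limma, adjusted p = 1.86e-08) and Co was 6.63-fold above GFP (log2 difference -0.91 ± 0.19, SE; limma, adjusted p = 0.00127). The difference in GFP stayed at -0.81 or lower over 12 alternatives and missed the threshold without mouse 814 or 825, with adjusted p-values up to 0.0151 (limma).

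Tek (chromosome 4, 94405980 to 94541667, plus strand) had the highest levels of the 6 receptors in HF-SC Tom. It had 2.63, 4.11 and 2.69 FPKM in the Co HF-SCs, 0.543, 0.993 and 0.0895 in the GFP HF-SCs and 43.9, 47.7 and 17.1 in the Tom HF-SCs, again with no overlap between the 3 groups. Tom was 11.5-fold above Co (log2 difference 3.06 ± 0.29, SE; limma, adjusted p = 9.65e-07), and Co was 5.80-fold above GFP (log2 difference -1.45 ± 0.29, SE; limma, adjusted p = 0.0011). The second of these stayed at -1.22 or lower over 12 alternatives and missed the threshold without mouse 825 (adjusted p = 0.0109).

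Flt4 (chromosome 11, 49422765 to 49466241, plus strand), the VEGF-C receptor, was low and uneven. It had 0.0752, 0.202 and 0.162 FPKM in the Co HF-SCs, 0.0844, 0.122 and 0 in the GFP HF-SCs and 1.79, 4.84 and 0.545 in the Tom HF-SCs. Mouse 815 had the highest Tom value and mouse 817 the lowest, and all 3 exceeded every other library of the table for this gene. The summed level of 5 lymphatic markers (Prox1, Lyve1, Ccl21a, Mmrn1 and Reln) ran in the same order over these Tom libraries, at 16.5, 41.1 and 2.43 FPKM against 0.504 to 1.30 FPKM in HF-SC Co, with Ccl21a listed at 0 in all 6. Their part in the level of Flt4 was not tested. Without the filter, Flt4 differed between Tom and Co by 1.36 (limma, adjusted p = 0.00435).

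Nrp1 (chromosome 8, 130882973 to 131029362, plus strand), a coreceptor of VEGF-A, had the highest level of the 6 receptors in HF-SC Co. It had 4.99, 5.07 and 4.27 FPKM in the Co HF-SCs, 0.658, 0.920 and 1.41 in the GFP HF-SCs and 14.9, 17.0 and 5.54 in the Tom HF-SCs, with no overlap. The mean of Tom was 2.62-fold that of Co (log2 difference 1.10 ± 0.28, SE; limma, adjusted p = 0.00477), and Co was 4.80-fold above GFP (log2 difference -1.55 ± 0.28, SE; limma, adjusted p = 0.000423). The difference in Tom stayed at 0.82 to 1.56 over 12 alternatives but missed the threshold in 7 of them, with adjusted p-values up to 0.0633 (limma), among them the removal of mouse 810, 814, 815, 825 or 828, whereas the fall in GFP passed in all 12. The annotation places 1 microRNA gene, Mir1903, on exon positions of Nrp1, and none on those of the other members.

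Nrp2 (chromosome 1, 62749859 to 62865269, plus strand), the neuropilin of lymphatic endothelium and a semaphorin receptor, had another order. It had 1.01, 1.61 and 1.24 FPKM in the Co HF-SCs, 2.29, 2.79 and 1.54 in the GFP HF-SCs and 10.3, 11.9 and 5.62 in the Tom HF-SCs. Tom was 7.19-fold above Co (log2 difference 2.12 ± 0.25, SE; limma, adjusted p = 8.56e-06), and GFP overlapped with Co. In b-KCs Nrp2 had the highest level of the 6 receptors, with 2.68, 3.04 and 2.44 FPKM for Co, 2.52, 2.76 and 1.17 for GFP and 1.68, 1.42 and 0.876 for Tom. Both b-KC Tom and HF-SC Co lay below b-KC Co in every library, with log2 differences of -0.69 (limma, adjusted p = 0.0357) and -0.71 (limma, adjusted p = 0.0285) that did not pass. Both passed with only the groups compared and without mouse 817, and with the mouse as a random replicate block the second passed (adjusted p = 0.00306, limma).

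**Figure D3:**
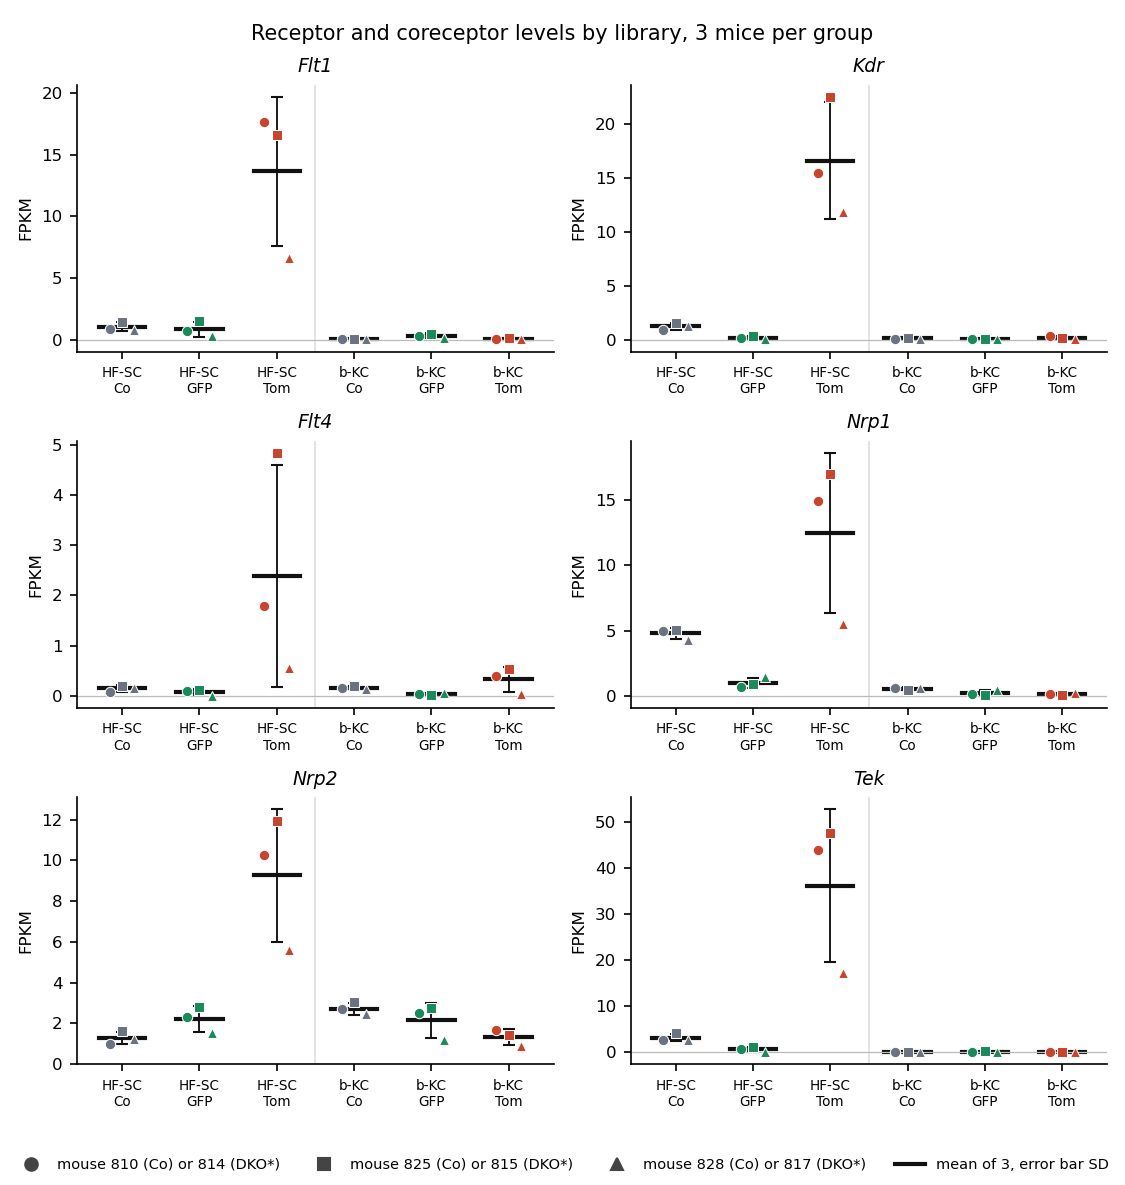
FPKM of the 6 receptors and coreceptors in each library of the 6 groups, with symbols for mice, the mean as a line and error bars of 1 SD (n = 3). HF-SC Tom stands above the other groups for each receptor, mouse 817 is its lowest library for all 6, and in b-KCs Nrp2 alone exceeds 1 FPKM.

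In b-KCs, the remaining receptors stayed low in all 9 libraries. Flt1 reached 0.501 FPKM, Kdr 0.364, Flt4 0.538, Nrp1 0.621 and Tek 0.132. Nrp1 was at 0.418 to 0.621 FPKM in b-KC Co and 0.0856 to 0.188 in b-KC Tom, groups without overlap whose log2 difference of -0.45 did not pass (limma, adjusted p = 0.195). Without mouse 817, or with only the groups compared, 2 members, Nrp1 and Nrp2, passed as lower in b-KC Tom. In b-KC GFP, Flt1 lay above b-KC Co in every library (log2 difference 0.33; limma, adjusted p = 0.363) and Kdr below it (-0.12; limma, adjusted p = 0.621). The b-KC GFP levels of Kdr, 0.0173 to 0.0275 FPKM, are about the worth of 3 reads.

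Both HF-SC fractions came from the same mice, but the main fit had no term for the mouse. By that fit, HF-SC Tom exceeded HF-SC GFP in 6 of the 9 members tested and was lower in 0. At an unadjusted p under 0.05 by limma, 2 were lower. Of all genes, 4.09% were higher and 0.902% lower. The 6 were Vegfc and the 5 receptors tested, and each was higher in 3 of 3 mice. Of these 6, Vegfc, Flt1 and Kdr would have missed the filter without the HF-SC Tom libraries. The count is thus partly fixed by the filter. Tek had the largest log2 difference, 4.51 ± 0.29 (SE; limma, adjusted p = 4.54e-08), followed by Kdr at 3.86 ± 0.19 (limma, adjusted p = 2.94e-09) and Flt1 at 2.94 ± 0.28 (limma, adjusted p = 2.62e-06). The order by mean FPKM was another, with Tom 90.1-fold above GFP for Kdr, 66.9-fold for Tek, 22.6-fold for Vegfc and 16.3-fold for Flt1. Nrp1 differed by 2.65 (limma, adjusted p = 6.96e-06), Vegfc by 1.79 (limma, adjusted p = 5.64e-05) and Nrp2 by 1.64 (limma, adjusted p = 0.000344), which missed the threshold without mouse 814 or 815 (adjusted p up to 0.0337, limma, over the alternatives). With the mouse as a fixed replicate block in these 6 libraries alone, Nrp1 (adjusted p = 0.0224, limma) and Vegfc (adjusted p = 0.0164, limma) did not pass. In that fit Tek and Kdr (adjusted p = 0.000657 for each, limma), Flt1 (adjusted p = 0.00274, limma) and Nrp2 (adjusted p = 0.0066, limma) passed. Without the block and with these libraries alone, 2 members passed, Kdr and Tek.

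Between b-KC Tom and b-KC GFP, 0 of 9 members were higher and 0 lower by limma, also at an unadjusted p under 0.05, where 0.125% of all genes were higher and 0.361% lower. With the mouse as a fixed replicate block in these libraries alone, none passed either, with unadjusted p-values of 0.0141 for Nrp2 (log2 difference -0.41; limma, adjusted p = 0.136), 0.0193 for Flt1 (-0.27; adjusted p = 0.16) and 0.0485 for Kdr (0.22; adjusted p = 0.265). Nrp2 and Flt1 were lower and Kdr higher in Tom in 3 of 3 mice. Among controls, HF-SC Co exceeded b-KC Co in 4 members and was lower in 0 (2 at an unadjusted p under 0.05 by limma), where 18.7% of all genes were higher and 19.3% lower. The 4 were Tek (log2 difference 1.95; limma, adjusted p = 4.82e-05), Nrp1 (1.90; limma, adjusted p = 3.71e-05), Kdr (0.99; limma, adjusted p = 0.000382) and Flt1 (0.97; limma, adjusted p = 0.00932). In mean FPKM, HF-SC Co was 53.0-fold above b-KC Co for Tek, 23.3-fold for Flt1, 10.8-fold for Kdr and 8.69-fold for Nrp1. The b-KC Co levels were low, with at most 0.0874 FPKM of Tek and 0.0703 of Flt1. The difference of Flt1 stayed at 0.85 or more over 12 alternatives and missed the threshold in 6 of them, no filter and the removal of mouse 810, 814, 815, 825 or 828, with adjusted p-values up to 0.0778 (limma). Vegfc lay above the b-KC libraries as well, with a log2 difference of 0.46 that did not pass (limma, adjusted p = 0.103). Over 12 alternatives it ran from 0.34 to 2.14 and passed in 3, a pseudocount of 0.1, only the groups compared and the removal of mouse 817 (limma, adjusted p down to 0.00153).

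Whether the change from Co differed between the cell types was tested as an interaction, the change in HF-SCs minus that in b-KCs. From Co to Tom it was above 0 for 5 members and below 0 for 0 (1 at an unadjusted p under 0.05 by limma), where 5.93% of all genes were above and 2.12% below. Of these 5, Vegfc, Flt1 and Kdr would have missed the filter without the HF-SC Tom libraries, so that this count is partly fixed by it. Tek differed by 3.09 ± 0.41 (SE; limma, adjusted p = 0.000152), Kdr by 2.86 ± 0.26 (limma, adjusted p = 7.44e-06), Nrp2 by 2.81 ± 0.36 (limma, adjusted p = 9.94e-05), Flt1 by 2.68 ± 0.40 (limma, adjusted p = 0.000336) and Vegfc by 1.52 ± 0.33 (limma, adjusted p = 0.00474). That of Vegfc missed the threshold in 7 of 12 alternatives, with adjusted p-values up to 0.0657 (limma), among them the removal of mouse 810, 814, 815, 825 or 828. Nrp1, at 1.55, did not pass (limma, adjusted p = 0.0134) and did so with the mouse as a random replicate block (adjusted p = 0.00736), which made 6 members. For Vegfa the interaction was 0.50, with a 95% interval of -0.39 to 1.38 (limma, adjusted p = 0.48). From Co to GFP, 0 members passed in either direction by limma, where 3.32% of all genes were above and 1.89% below, and 2 were above and 4 below at an unadjusted p under 0.05. With the random replicate block, 1 member passed in each direction there, Pgf above 0 (1.53; limma, adjusted p = 0.00632) and Tek below it (-1.48; limma, adjusted p = 0.00616).

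Endothelial markers, as a sum, were also highest in HF-SC Tom, with HF-SC GFP under its controls. The 16 markers (among them Pecam1, Cdh5, Emcn, Plvap and Vwf) summed to 63.7 to 106 FPKM in the Co HF-SCs, 3.14 to 40.2 in the GFP HF-SCs and 1733, 1670 and 518 in the Tom HF-SCs of mice 814, 815 and 817. Pecam1, which encodes CD31, had 8.62 to 12.9 FPKM in HF-SC Co and 209, 234 and 66.3 FPKM in HF-SC Tom. In b-KCs the 16 summed to 2.35 to 12.9 FPKM, and in b-KC Co each of the 16 was below 1 FPKM in all 3 libraries. In HF-SC Tom against HF-SC Co, the 15 markers tested were higher (15.7% of all genes), with a median log2 difference of 3.19 beside -0.0376 over all genes tested. Of these, 5 (Cdh5, Cldn5, Erg, Sox17 and Sox18) would have missed the filter without the HF-SC Tom libraries, so that this count is partly fixed by it. In HF-SC GFP 6 of 15 were lower (12.3% of all genes), with a median of -1.14 beside -0.0465. Leukocyte markers (6 genes), which the CD45 gate should hold low, summed to 12.6, 10.0 and 14.6 FPKM among Tom HF-SCs, 4.46 to 21.7 among GFP HF-SCs and 1.86 to 2.45 in HF-SC Co. Fibroblast markers (7 genes) summed to 16.5 to 119, 22.8 to 122 and 46.5 to 95.9 FPKM. The part of these cells in the results was not tested.

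The receptors were also set against the endothelial marker sum, which does not include them, as the ratio of their FPKM to it in percent. Kdr stood at 0.893%, 1.35% and 2.28% in HF-SC Tom and 0.968%, 1.45% and 1.97% among the Co libraries, a log2 difference of -0.0030 (exact permutation test, two-sided, p = 1.0). Flt1 stood at 0.993% to 1.28% and 1.00% to 1.37% (log2 difference -0.15; exact permutation test, p = 0.4), and Tek 2.54% to 3.31% and 2.90% to 4.22% (log2 difference -0.33; exact permutation test, p = 0.2). The groups overlapped for all 3 of these receptors, and 3 against 3 libraries allow no p-value below 0.1. HF-SC GFP was left out of these ratios. There Flt1 overlapped with HF-SC Co, at 0.321 to 1.51 against 0.823 to 1.45 FPKM, whereas Kdr and Tek lay below it. The marker sum lay below it as well, at 3.14 to 40.2 against 63.7 to 106 FPKM.

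For the neuropilins and Vegfc the percentages lay lower in Tom. Nrp1 stood at 0.862% to 1.07% in Tom and 4.80% to 6.70% in Co (log2 difference -2.52), Nrp2 0.592% to 1.08% and 1.11% to 1.95% (-0.95), and Vegfc 0.236% to 0.256% and 0.343% to 0.592% (-0.83). The groups did not overlap for these 3, and the exact permutation test gave p = 0.1 for each. Flt4 overlapped, at 0.103% to 0.290% and 0.0829% to 0.254% (log2 difference -0.12; exact permutation test, p = 1.0). How far the marker sum itself accounts for the rise of a receptor was not tested.

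**Figure D4:**
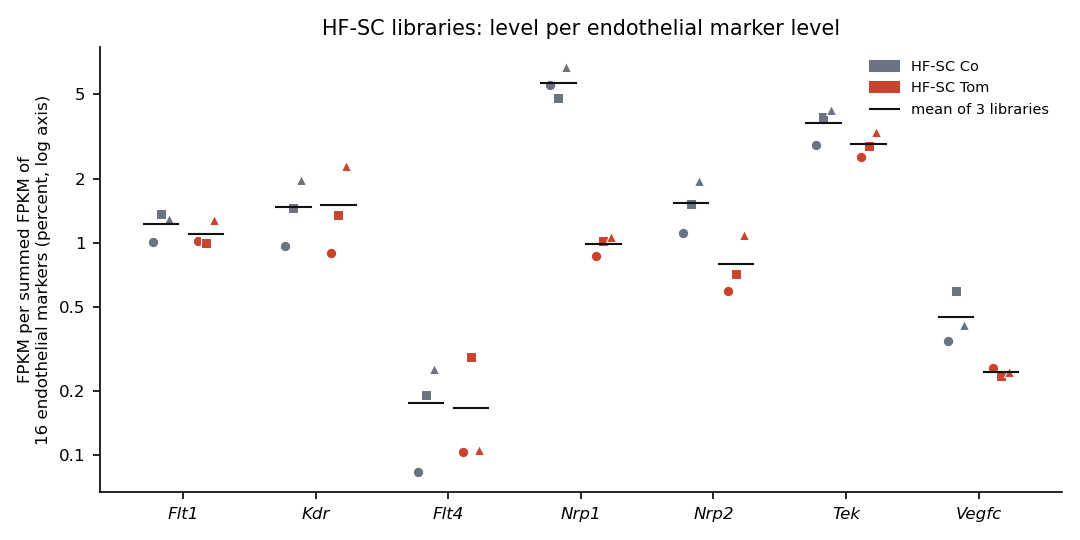
Ratio of the FPKM of each receptor and of Vegfc, in percent, to the summed FPKM of 16 endothelial markers (log axis) in HF-SC Co (grey) and HF-SC Tom (red), with circles, squares and triangles for mice 810, 825 and 828 or 814, 815 and 817 and a line for the mean of 3. Flt1, Kdr, Flt4 and Tek overlap between the groups, and Nrp1, Nrp2 and Vegfc do not.

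Ligands and receptors were also summed separately. The 4 ligands summed to 9.39 ± 1.40 FPKM (SD, n = 3) in HF-SC Co, 30.0 ± 4.95 among GFP HF-SCs and 21.6 ± 5.07 among Tom HF-SCs, and to 10.9 ± 1.68, 23.7 ± 7.19 and 20.4 ± 3.28 FPKM in b-KC Co, GFP and Tom. The 6 receptors summed to 11.6 ± 2.03 FPKM in the Co HF-SCs, 4.83 ± 1.67 in the GFP HF-SCs and 90.7 ± 38.4 in the Tom HF-SCs, and to 3.65 ± 0.32, 2.83 ± 0.84 and 2.10 ± 0.77 FPKM in the b-KC groups. Ligand per receptor thus ran from 0.138 to 0.566 in HF-SC Tom and 0.598 to 1.05 in HF-SC Co, against 4.68 to 7.82 in HF-SC GFP and 2.38 to 13.4 over the 9 b-KC libraries. Vegfb held 70.6% ± 8.46 (SD, n = 3) of the ligand sum in HF-SC Co and 58.4% ± 5.24 in b-KC Co, and Vegfa held 69.1% ± 9.74 among GFP HF-SCs, 42.1% to 66.4% among Tom HF-SCs, 64.2% ± 2.07 among GFP b-KCs and 63.3% ± 4.34 among Tom b-KCs. These sums are descriptions, and no test was run on them.

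**Figure D5:**
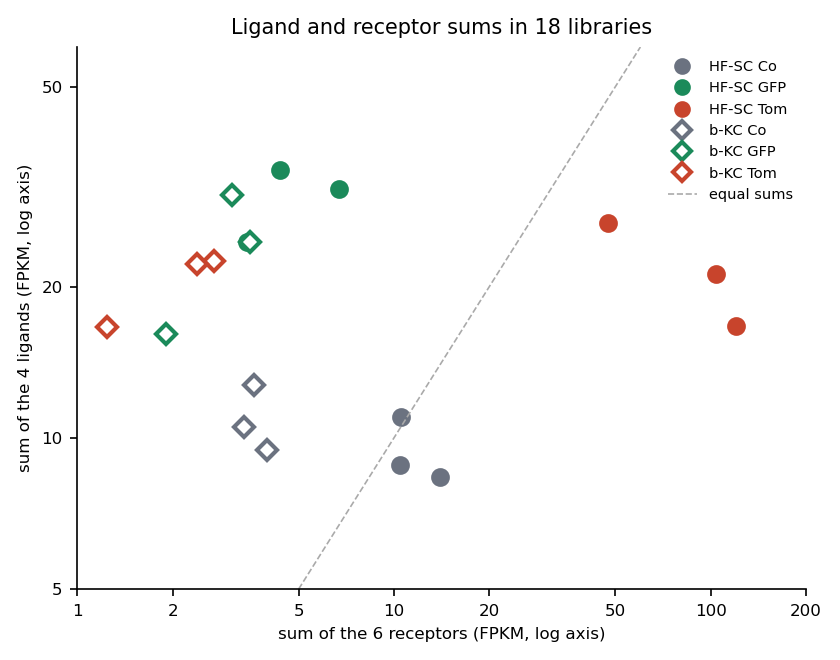
Summed FPKM of the 4 ligands against that of the 6 receptors in each of the 18 libraries (both axes log), with the dashed line where both are equal. HF-SC Tom lies right of the line at 47.3 to 121 FPKM of receptors, and HF-SC GFP and all b-KC libraries lie left of it.

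Other genes of the pathway were taken from 3 lists. Of 12 further ligands and inhibitors, 7 were tested. In HF-SC Tom, Angpt2, a Tek ligand made by endothelium, had 6.44, 6.10 and 1.99 FPKM against 0.150 to 0.184 in HF-SC Co (log2 difference 2.21; limma, adjusted p = 3.21e-06). Sema3f, a semaphorin that binds Nrp2, had 33.5, 38.7 and 41.5 FPKM in HF-SC Tom and 23.2 to 29.4 in HF-SC GFP against 5.85 to 8.83 in HF-SC Co, and rose in both (2.31 and 1.76; limma, adjusted p = 1.78e-08 and 2.8e-07). Sema3e, which binds Plxnd1, fell in both, by 1.95 and 1.45 on the log2 scale (limma, adjusted p = 9.04e-06 and 0.000178). In all, 2 rose and 1 fell in HF-SC Tom (15.7% and 13.9% of all genes) and 1 rose and 1 fell in HF-SC GFP (13.0% and 12.3%). Angpt2 would have missed the filter without the HF-SC Tom libraries. The medians over the list were 0.048 and 0.000676, beside -0.0376 and -0.0465 over all genes. In b-KCs, 2 fell in each fraction (15.3% of all genes in Tom, 12.0% in GFP), Sema3d and Sema3e in Tom and Sema3d and Sema3f in GFP, and 0 rose by limma, also at an unadjusted p under 0.05. Sema3d, the largest of these, was at 48.6 to 76.7 FPKM in b-KC Co and 2.68 to 13.6 in b-KC Tom (log2 difference -3.51; limma, adjusted p = 5.59e-05).

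Of 22 partners and targets of the receptors, 17 were tested. In HF-SC Tom, 7 rose (15.7% of all genes) and 2 fell (13.9%), with a median log2 difference of 0.44 beside -0.0376 over all genes. Of those tested, 4 (Plxnd1, Nos3, Apln and Aplnr) would have missed the filter without the HF-SC Tom libraries, so that this count is partly fixed by the filter. Those with the largest changes were Tie1, the partner of Tek (57.1, 52.7 and 19.6 FPKM against 1.68 to 3.30 in HF-SC Co; log2 difference 3.66; limma, adjusted p = 6.58e-07), Nos3, endothelial nitric oxide synthase (3.09; limma, adjusted p = 8.79e-08), Ptprb, the endothelial phosphatase (2.69; limma, adjusted p = 3.68e-07) and Aplnr, the apelin receptor (2.12; limma, adjusted p = 1.86e-08). In HF-SC GFP, 3 rose (13.0% of all genes) and 4 fell (12.3%), with a median of -0.51 beside -0.0465, among the fallers the semaphorin receptor Plxna2 (-2.11; limma, adjusted p = 0.000487). In b-KC Tom 6 fell (15.3% of all genes) and in b-KC GFP 4 fell (12.0%), with 0 rising in either by limma and 1 in each at an unadjusted p under 0.05. In b-KC Tom, Nr4a1, an immediate early gene of many cell types, had the largest of these changes (-2.28; limma, adjusted p = 0.00125).

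Of 18 genes of oxygen sensing and its targets, which as background include the regulators of Vegfa transcription, all were tested. In HF-SC Tom 11 rose (15.7% of all genes) and 1 fell (13.9%), with a median log2 difference of 1.04, and in HF-SC GFP 10 rose (13.0%) and 0 fell (12.3%), with a median of 1.15 (limma; 1 was lower at an unadjusted p under 0.05). In b-KC Tom and b-KC GFP 7 rose (15.4% and 12.5% of all genes) and 0 fell (15.3% and 12.0%) in each, with medians of 0.81 and 0.83 (limma; 2 and 3 were lower at an unadjusted p under 0.05). The medians over all genes lay between -0.0465 and -0.0202 in these comparisons. Egln3, an oxygen sensor that HIF induces, had 94.7, 77.0 and 37.5 FPKM among GFP HF-SCs and 36.9, 25.4 and 22.3 among Tom HF-SCs, all above the 2.78 to 4.88 FPKM of HF-SC Co (log2 differences 3.90 and 2.69; limma, adjusted p = 1.11e-05 and 0.000269). Pgk1 and Ldha, enzymes of glycolysis, rose by 2.14 and 2.09 in HF-SC GFP (limma, adjusted p = 5.58e-05 and 2.7e-05) and by 2.06 and 2.17 in HF-SC Tom (limma, adjusted p = 6.11e-05 and 1.51e-05). Epas1, the HIF subunit abundant in endothelium, rose in HF-SC Tom (2.22; limma, adjusted p = 1.59e-05) and was the 1 gene of the list that differed between the HF-SC fractions, with 15.2, 16.1 and 6.14 FPKM in Tom and 0.527 to 1.31 in GFP (2.65; limma, adjusted p = 8.1e-06).

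The genes most like Vegfa over the 18 libraries, by Pearson's correlation of log2(FPKM + 1), were Pla2g4e, a phospholipase (r = 0.963), Car9, a carbonic anhydrase (0.960), Slc7a11, the cystine transporter (0.959), Tgfa, an EGF receptor ligand (0.959), and Slc2a1, the glucose transporter (0.956). Those most like Kdr were the integrin subunit Itga9 (r = 0.994), Rftn1 (0.993), She (0.992), Tacr1 (0.992) and Podxl, a sialomucin of vessel lining (0.992). The 2 lists share no gene. Slc2a1 averaged 44.0 FPKM in HF-SC Co, 174 among GFP HF-SCs and 126 among Tom HF-SCs, whereas Podxl averaged 1.37, 0.427 and 10.8 FPKM. The points share mice, and the libraries fall into 6 groups, so these r values describe the table and carry no test.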

How the data were processed

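RNA from 18 sorted populations of ear skin, 3 mice in each of 6 groups as the labels name them, was reverse transcribed with a SMART-Seq v4 kit into libraries without strand information. The authors sequenced single ends of 51 bases and placed them on NCBI37/mm9, with up to 2 mismatches and 20 multihits, by TopHat 2.0.10 and Bowtie 1.0.0. With Cufflinks 2.2.1 (submitters' processing notes) they made the deposited FPKM values, 1 per gene and library, for 23951 genes. The notes also list GRCm38/mm10, whose role is not given in the sources used here. Strand and multihits leave overlapping genes and close paralogs uncertain, and an exact 0 can be a failed estimate.

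From these values, the 12751 genes that reached 1 FPKM in 3 or more libraries entered limma 3.58.1 (R 4.3.3) on log2(FPKM + 1), with 6 group means, eBayes with a trend and Benjamini-Hochberg adjustment within each comparison, and passed at an adjusted p under 0.01. limma was tested on simulated data. Ratios to endothelial markers were compared by two-sided exact permutation tests. Positions come from NCBIM37 (GENCODE vM1). Other steps used pandas 2.3.3, numpy 2.4.6 and matplotlib 3.10.9 under Python 3.11.15.

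Read totals are not in the table. Depth was read from FPKM steps of 7744 genes with 1 transcript, whose low values came within 0.1 of a whole read in 76.6% to 81.2% of cases. Reads copied by PCR, with no molecular identifiers, are not independent. No 2 libraries of a group held the same values. Libraries with the same mouse number come from 1 animal, and their deviations from the group means correlated at r = 0.0838 to 0.700 (20 of 21 pairs over 0.1). Fits with the mouse as a block are given where they change a call.

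All 10 genes are named by their levels, with a log2 difference where it passed or where libraries did not overlap. From each pathway list at most 4 genes that passed, those with the largest change, are named per comparison, and for Vegfa and Kdr the 5 genes most alike. Angpt2, Sema3d and Podxl levels and the microRNA overlap were given after their values were seen. The members, lists and tests were chosen with earlier results of these data known. Alternatives were another pseudocount (0.1), no filter, other thresholds, only the groups compared, no trend, libraries rescaled by size factors, a block for the mouse, and leaving out each mouse.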

Additional observations from a re-analysis of the deposited data

Results flagged for a closer look

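For 5 members the change from Co to Tom differed between HF-SCs and b-KCs by the interaction test of limma. Vegfc, Flt1 and Kdr among them would have missed the filter without the HF-SC Tom libraries. The difference, HF-SC minus b-KC on the log2(FPKM + 1) scale, was 3.09 for Tek, 2.86 for Kdr, 2.81 for Nrp2, 2.68 for Flt1 and 1.52 for Vegfc. Tek, Kdr, Nrp2 and Flt1 passed in all 12 alternative fits. Vegfc stayed at 1.28 to 2.73, passed in 5 of 12 and had adjusted p-values up to 0.0657, missing the threshold under a pseudocount of 0.1, with only the groups compared and without mouse 810, 814, 815, 825 or 828. In the b-KC groups Vegfc was listed at 0 or lay under the worth of 3 reads, and Flt1, Kdr and Tek reached at most 0.501, 0.364 and 0.132 FPKM. The endothelial markers summed to 518 to 1733 FPKM in HF-SC Tom and 5.74 to 12.9 FPKM in b-KC Tom, and their part in these differences was not tested.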

How the results depend on the processing

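Of 970 alternative values, 865 kept both their direction and their side of the threshold (counts within 1.5 times, levels within 1 SD), 53 lost the threshold, 20 gained it, 32 moved and 0 reversed. Of 44 log2 differences, 25 held under every alternative run. The replicate block, with the mouse as the unit, changed the calls of Nrp1 and Vegfc between the HF-SC fractions (fixed), of Nrp2 in HF-SC Co against b-KC Co, and of Nrp1 (Tom), Pgf and Tek (GFP) in the interactions (random), and no other call of a member.

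Among counts of members passing, a limit of 2 on the absolute log2 change left 4 higher in HF-SC Tom against Co, 0 lower in HF-SC GFP against Co, and 0 higher in b-KC Tom, b-KC GFP and HF-SC Co against their counterparts. With only the groups compared, 2 were higher and 2 lower in b-KC Tom against Co, 2 higher in HF-SC Tom against GFP, 2 lower in HF-SC Co against b-KC Co and 2 below 0 in the interaction for GFP. An adjusted p under 0.05 gave 1 lower in b-KC Tom, 2 higher in b-KC GFP, 2 lower in HF-SC Co against b-KC Co and 1 in each direction in the interaction for GFP. The random replicate block gave 1 lower in HF-SC Co against b-KC Co and 1 in each direction in that interaction, and a pseudocount of 0.1 gave 2 higher in b-KC GFP.

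Leaving out each mouse in turn gave 1 to 3 lower in HF-SC GFP against Co (1 without mouse 825), 0 to 1 higher and 0 to 2 lower in b-KC Tom (2 lower without mouse 817, Nrp1 and Nrp2), 0 to 2 higher and 0 to 1 lower in b-KC GFP, 0 to 1 lower in HF-SC Tom against GFP, 0 to 2 lower in HF-SC Co against b-KC Co, and 0 to 1 above and 0 to 2 below 0 in the interaction for GFP. Without mouse 817 each upper figure outside HF-SC GFP and b-KC Tom higher was reached. Nrp2 between the HF-SC fractions failed without mouse 814 or 815 and with only those groups (adjusted p up to 0.0337, limma). Over all genes, HF-SC Tom against GFP gave 521 higher and 115 lower, but 74 and 9 with those groups alone and 172 and 24 with the fixed block. The cause of these shifts was not tested. The worth of 3 reads limits Vegfc in b-KCs and Kdr in b-KC GFP.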
